A study of Mus musculus with 6 samples.

Results

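Knock-down of Ntn1, the gene of the secreted ligand netrin-1, was compared with an empty vector in LKPR EPCAM+ cells, an epithelial line from mouse skin. The comparison used 4 of the 6 RNA sequencing libraries of the series, 2 that carried the empty vector and 2 that carried the Ntn1 knock-down, chosen by their labels. The other 2 libraries carried a knock-down of the netrin receptor gene Unc5b; they entered the estimate of the spread and are given where a value is set beside them. All 3 groups carried Lgr5CreER, had p53fl/fl and were Rosa26-YFP+/+, among the alleles of their shared genotype, so the controls also carry the floxed p53 gene and the YFP reporter, with the Cre recombinase under Lgr5. The vectors were of the pLKO.1-puro type in all groups, transduced cells were selected with puromycin, and RNA was taken at day 6 from living cells sorted as positive for YFP and EPCAM. The labels do not say which hairpin was used, how many, or whether the 2 libraries in a group stem from different cultures, and p-values therefore reflect a spread between libraries that may be technical. Cells without EPCAM on their surface were gated out in every group.

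Netrin-1 is a laminin-related protein that is secreted and held in basement membranes. It was first described as a cue that guides growing axons, through the receptors DCC, neogenin and the UNC5 family. UNC5B and DCC are known as dependence receptors, which can trigger cell death when the ligand is absent, and netrin-1 is often raised in carcinomas. Epidermal carcinoma cells range from states rich in keratins and cell junctions to mesenchymal-like states with more matrix and motility genes.

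Values are given as deposited, scaled to 20 M per library, and in pairs: libraries 1 and 2 of the empty vector, then libraries 1 and 2 of the Ntn1 knock-down. The spacing of the values gives depths of 8.75 to 10.18 M reads for the empty vector libraries and 6.54 to 8.41 M for the Ntn1 knock-down. Between 22746 and 23183 genes were above 0 in these 4 libraries, and 3 reads correspond to a value of 5.9 to 9.17. A gene was tested if its mean over the 6 libraries was at least 20, which 15330 genes reached, on the scale log2(value + 5) with limma and Benjamini-Hochberg adjustment over all of them. It is said to have risen or fallen where the adjusted p was under 0.05. For genes at or under 3 reads in a group the fitted fold change depends on the constant of 5, and for those at 0 in both controls a lower bound is given against the 3-read limit. The empty vector libraries were further apart than the knock-down libraries: 5.34% of genes differed at least 2-fold between the former and 2.22% between the latter. With 2 libraries in each group, an exact permutation test could not give a p below 0.333.

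The label of the knock-down held in the data. Ntn1 (ENSMUSG00000020902, chromosome 11, 68209364 to 68400823 in GRCm38, transcribed from the minus strand) was at 1566 and 2588 with the empty vector and at 359 and 431 with Ntn1 knocked down. Both knock-down libraries lay below both controls, although the controls were far apart (log2 fold change -2.34 ± 0.29 SE, adjusted p = 0.00162). With Unc5b knocked down, Ntn1 was at 1319 and 771, and the level in the Ntn1 knock-down was below that too (log2 difference -1.35 ± 0.29 SE, adjusted p = 0.0316), although this call was lost without library 1 or 2 of the Ntn1 knock-down or library 1 of the Unc5b knock-down (adjusted p from 0.16 to 0.258). These are bulk samples, in which fewer cells of a kind and less RNA per cell cannot be told apart.

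Of the receptors, Unc5b (ENSMUSG00000020099, chromosome 10, 60762593 to 60831581) was at 1527 and 1573 with the empty vector and at 2311 and 2382 with Ntn1 knocked down. The groups did not overlap and the receptor rose (log2 fold change 0.6, adjusted p = 0.0193). It lies on chromosome 10, where the median gene was 0.18 higher on the log2 scale. Neo1, which encodes neogenin, was at 4151 and 4870 with the empty vector and at 5386 and 5125 with Ntn1 knocked down (log2 fold change 0.22, adjusted p = 0.29). Unc5c was at 37 and 149 with the empty vector and at 14 and 28 with Ntn1 knocked down. The knock-down libraries were the lower ones, but the controls were far apart (log2 fold change -1.68, adjusted p = 0.114). Over the alternative fits its log2 fold change lay between -2.62 and -0.75. Unc5a, Unc5d, Dcc and Dscam were listed at 0 in all 6 libraries, where the limit of 3 reads applies. Among partners of these receptors, Dapk1, a death-associated kinase that acts downstream of UNC5B, was at 8 and 25 with the empty vector and at 292 and 312 with Ntn1 knocked down. It rose in both knock-down libraries (log2 fold change 3.96 ± 0.4 SE, adjusted p = 0.000712), as did Flrt2, a membrane protein that binds UNC5 receptors, at 20 and 41 against 314 and 278 (log2 fold change 3.15, adjusted p = 0.00167). Fyn, a kinase of the SRC family that netrin receptors use, was at 212 and 368 against 782 and 847. It rose (log2 fold change 1.53, adjusted p = 0.00538), whereas Dock1, an exchange factor for the GTPase RAC, fell from 1655 and 1655 to 987 and 1122 (log2 fold change -0.65, adjusted p = 0.0121). Of the whole list of netrins, receptors and partners, 6 of 24 tested members were called higher and 2 lower. For Unc5b, Fyn and Dock1 the calls did not hold without library 1 or library 2 of the knock-down (adjusted p from 0.0627 to 0.175). Centring by chromosome ended the call of Unc5b (adjusted p = 0.0779).

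Over all genes, 2314 of 15330 passed, which is 15.1%. Of these 1232 rose (8.04%) and 1082 fell (7.06%), and 665 (4.34%) and 434 (2.83%) of them by at least 2-fold on the log2 scale. The shares of 8.04% and 7.06% are the background for all counts of list members. The lists were chosen with earlier results of these data known, so those counts are descriptions. The 2 groups did not overlap for 8919 genes (58.2%), so a lack of overlap alone is common here. Called genes were picked from the lists and the largest changes only where the groups did not overlap. For those genes the lack of overlap is no added support. Large changes were mostly rises: 120 genes rose and 44 fell by at least 3 on the log2 scale. The share that passed grew with the level of the gene, from 7.17% higher and 3.26% lower among genes with a mean of 20 to 96.5 to 9.99% and 10.2% among those at 1301.8 or more. It was 9.14% higher and 8.3% lower for protein-coding genes and 6.23% and 4.13% for long non-coding and antisense genes. The count rests on both knock-down libraries: 507 genes passed when library 1 of the knock-down was dropped and 563 when library 2 was dropped, with the remaining library taken to vary as the other groups do. The calls of 438 of the 2314 genes were kept whichever of the 6 libraries was left out. Of the 2314, 158 had empty vector libraries at least 2-fold apart.

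**Figure D1:**
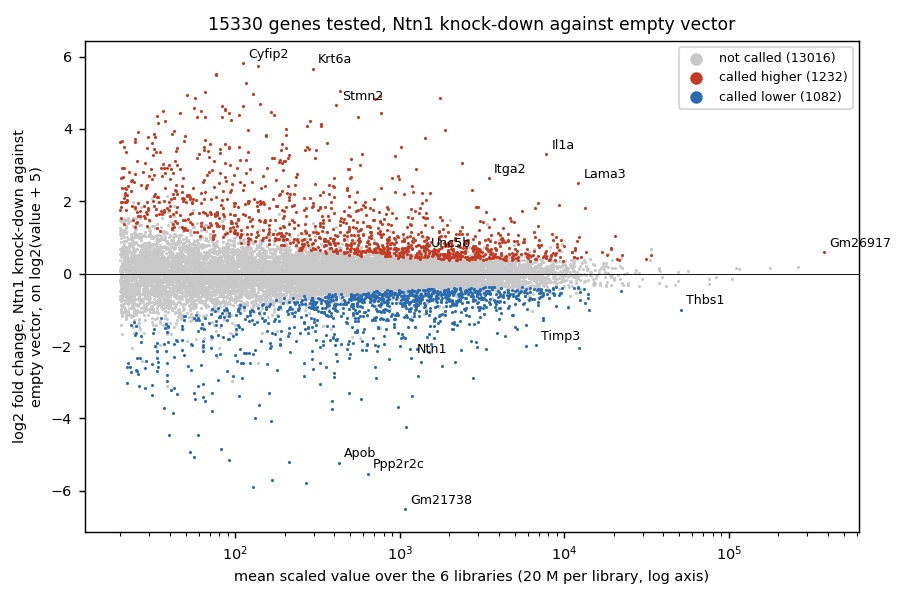
Log2 fold change on log2(value + 5), Ntn1 knock-down over empty vector, for each of the 15330 genes tested, against its mean scaled value over the 6 libraries on a log axis. The 1232 genes called higher (red) include 120 above 3, the 1082 called lower (blue) include 44 below -3, and the gene furthest below 0 is Gm21738.

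**Figure D2:**
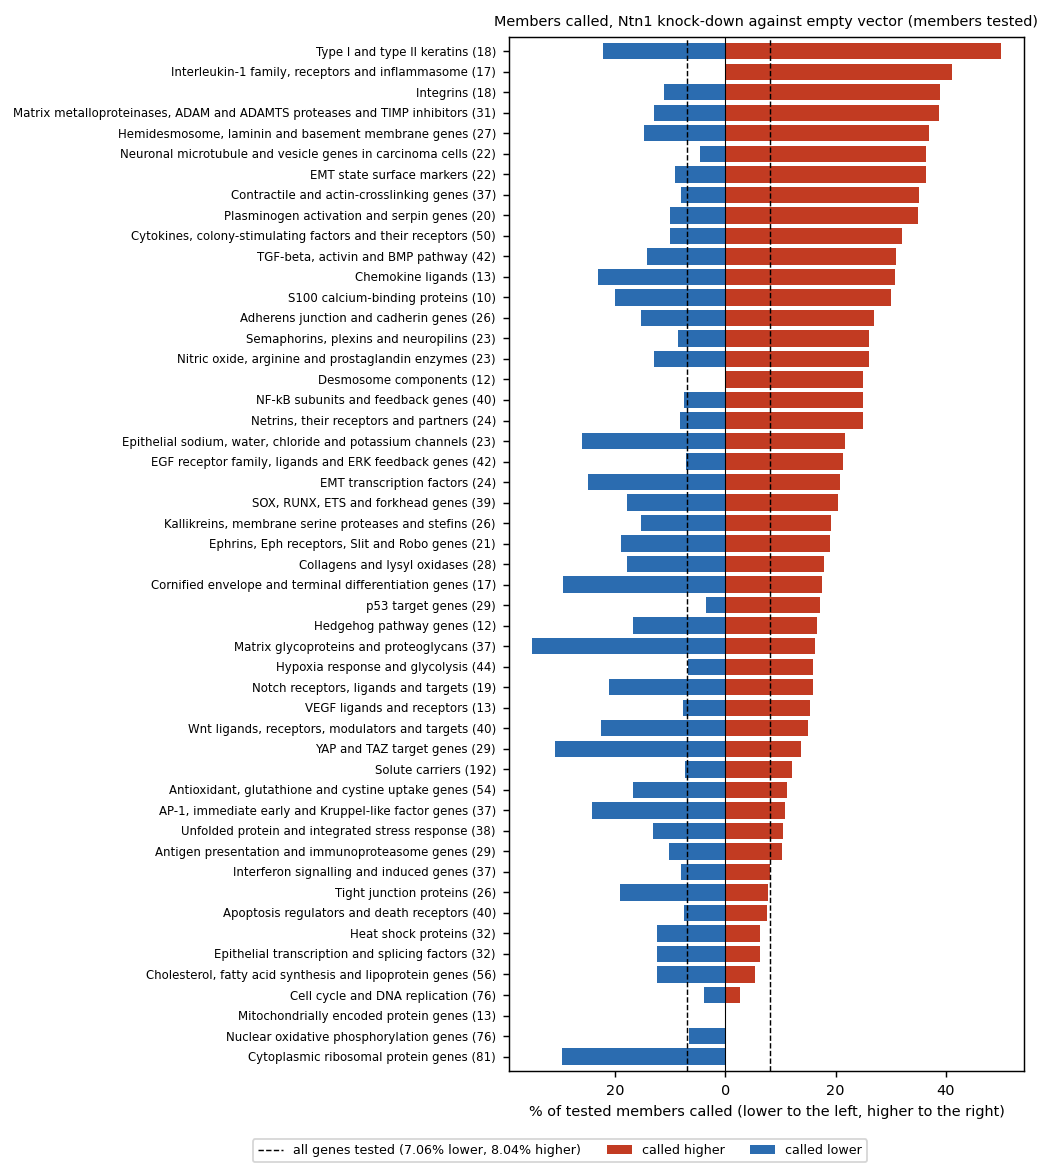
Share of the tested members of each gene list with at least 10 of them that was called higher (right, red) or lower (left, blue), with the number tested in brackets and dashed lines at the shares over all genes (8.04% and 7.06%). Keratins, interleukin-1 genes, integrins and matrix proteases lie at the top, and ribosomal protein genes, with 0 higher, at the bottom.

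Genes of the epidermal basement membrane were called mostly higher. Lama3 and Lamb3 encode chains of laminin-332, the laminin that anchors basal keratinocytes. Lama3 was at 4294 and 3011 with the empty vector and at 21692 and 19212 with Ntn1 knocked down (log2 fold change 2.5 ± 0.17 SE, adjusted p = 0.000203). Lamb3 was at 2861 and 2275 with the empty vector and at 6613 and 5746 with Ntn1 knocked down (log2 fold change 1.27, adjusted p = 0.000879). For both genes each knock-down library was at least 2-fold above each control. Fermt1, which encodes kindlin-1, an activator of integrins in keratinocytes, also rose, from 1272 and 1001 to 2568 and 2458 (log2 fold change 1.15, adjusted p = 0.00151). Other members fell. Fras1, of the Fraser complex under the epidermis, was at 320 and 871 with the empty vector and at 10 and 9 with Ntn1 knocked down, with controls far apart but both above the knock-down (log2 fold change -5.2, adjusted p = 0.00166). The type IV collagen genes Col4a1, at 12701 and 12020 against 8596 and 7908, and Col4a2, at 9763 and 8197 against 5709 and 5207, were lower as well (log2 fold change -0.58, adjusted p = 0.00722 and log2 fold change -0.71, adjusted p = 0.00632). Of the hemidesmosome, laminin and basement membrane list, 10 of 27 tested members were called higher and 4 lower, against 8.04% and 7.06% of all genes. With 1 knock-down library left out these counts were 5 higher and 1 lower without library 1 and 5 and 1 without library 2. Lama3 lies on chromosome 18, where the median gene was 0.29 higher, and the Col4a1 and Col4a2 pair on chromosome 8, where it was 0.33 lower. Dropping library 1 or library 2 of the knock-down removed the calls of Col4a1 and Col4a2 (adjusted p from 0.064 to 0.114). Centring by chromosome ended the calls of Col4a1 and Col4a2 (adjusted p from 0.0627 to 0.127).

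Integrins, the receptors of these proteins, were also called mostly higher. Itga2, the alpha chain of a collagen and laminin receptor, was at 1372 and 912 with the empty vector and at 7381 and 6678 with Ntn1 knocked down (log2 fold change 2.64 ± 0.19 SE, adjusted p = 0.000203). Itga5, the alpha chain of the fibronectin receptor, was at 574 and 558 against 2242 and 2137 (log2 fold change 1.94, adjusted p = 0.000125). Itgb3, a beta chain that pairs with the alpha-v chain, was near 0 in the controls, at 6 and 2 against 221 and 205 (log2 fold change 4.63, adjusted p = 0.000369). In each case the knock-down libraries were close to each other. Both were above both controls, which the rule for naming called genes required. Itga6, the laminin receptor of hemidesmosomes, rose less, from 8618 and 6832 to 13720 and 12326 (log2 fold change 0.76, adjusted p = 0.00739). Itgb5 fell, from 2563 and 4253 to 1144 and 1147 (log2 fold change -1.52, adjusted p = 0.0106). Of 18 integrins tested, 7 rose and 2 fell, with a median log2 fold change of 0.48 against -0.017 over all genes. The counts were 4 higher and 0 lower without library 1 and 3 and 0 without library 2. Without library 1 or library 2 of the knock-down, the calls of Itga6 and Itgb5 were lost (adjusted p from 0.0623 to 0.104).

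**Figure D3:**
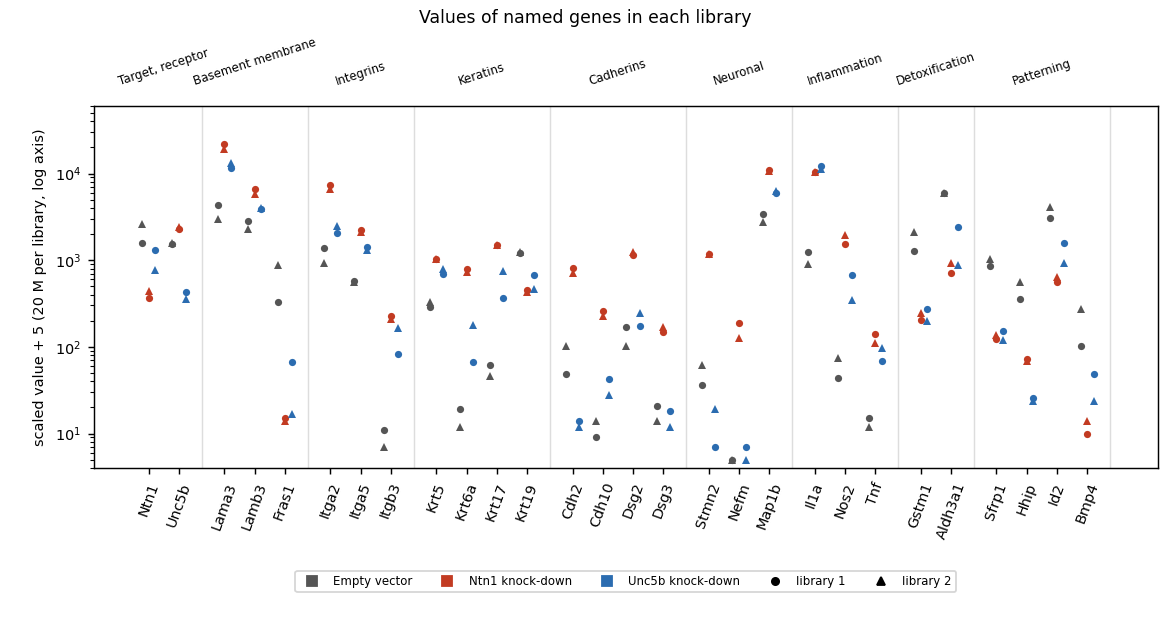
Scaled value + 5 on a log axis of named genes in each of the 6 libraries (circles library 1, triangles library 2). The 2 Ntn1 knock-down libraries (red) lie close together for most genes, and for Lama3, Itga2, Krt6a, Cdh2 and Stmn2 they lie above all 4 other libraries.

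Keratins were called in both directions, and most of those called rose. Krt5, the keratin of basal keratinocytes, was at 287 and 320 with the empty vector and at 1034 and 1027 with Ntn1 knocked down (log2 fold change 1.75 ± 0.14 SE, adjusted p = 0.000327). Krt6a and Krt17, keratins of wounded and hyperproliferative epidermis, were low in the controls, at 14 and 7 against 789 and 731 for Krt6a (log2 fold change 5.66, adjusted p = 0.000276) and 57 and 41 against 1491 and 1511 for Krt17 (log2 fold change 4.82, adjusted p = 0.000163). Krt14, the partner of Krt5, was at 3917 and 1692 against 5233 and 4795 and did not pass (log2 fold change 0.96, adjusted p = 0.164). Over the alternative fits its log2 fold change lay between 0.35 and 1.56. Other keratins of simple and stratifying epithelia fell: Krt19 was at 1191 and 1242 against 442 and 419 (log2 fold change -1.49, adjusted p = 0.00182), Krt7 at 16203 and 15263 against 9756 and 9183 (log2 fold change -0.73, adjusted p = 0.00264) and Krt76, of suprabasal oral epithelium, at 200 and 352 against 57 and 58 (log2 fold change -2.11, adjusted p = 0.00797). The simple keratin Krt18 rose, from 9797 and 11337 to 14678 and 14442 (log2 fold change 0.47, adjusted p = 0.0234), and its partner Krt8, at 17575 and 15208 against 20874 and 19524, did not pass (log2 fold change 0.3, adjusted p = 0.154). In all, 9 of 18 tested members were called higher and 4 lower, which is the highest share of the lists with at least 10 members tested. The counts were 3 higher and 2 lower without library 1 and 3 and 1 without library 2. The calls of Krt76 and Krt18 were lost without library 1 or library 2 of the knock-down (adjusted p from 0.0759 to 0.186). Leaving out library 2 of the knock-down ended the call of Krt7 (adjusted p = 0.059). For Krt18 the call did not hold without library 1 of the empty vector (adjusted p = 0.0558).

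Genes of the cornified layer went both ways. Tgm1, the transglutaminase that cross-links the cornified envelope, was at 1022 and 846 with the empty vector and at 93 and 86 with Ntn1 knocked down (log2 fold change -3.31 ± 0.18 SE, adjusted p = 9.7e-05), and Psapl1, a saposin-like gene, at 1916 and 3027 against 162 and 205 (log2 fold change -3.69, adjusted p = 0.000203). Both fell in both knock-down libraries. Ivl, which encodes involucrin, a substrate of that enzyme, rose from 26 and 37 to 74 and 107 (log2 fold change 1.38, adjusted p = 0.0239). Of 17 such genes, 3 rose and 5 fell. Genes of protease inhibitors differed in direction. Stfa3, a stefin that blocks cysteine proteases, was listed at 0 in both controls and at 207 and 239 in the knock-down, at least 35-fold higher (adjusted p = 0.000309), and Slpi, which blocks leukocyte elastase, rose from 576 and 332 to 2014 and 2168 (log2 fold change 2.24, adjusted p = 0.000685). Cst3, which encodes the cysteine protease inhibitor cystatin C, fell from 1303 and 1816 to 785 and 786 (log2 fold change -0.97, adjusted p = 0.0088). Of 26 kallikreins, membrane serine proteases and stefins 5 rose and 4 fell, shares of 19.2% and 15.4% against 8.04% and 7.06% of all genes. The calcium-binding genes S100a14 (118 and 151 against 861 and 841), S100a16 (33 and 34 against 257 and 294) and S100a8 (2 and 7 against 97 and 135) also rose, with log2 fold changes of 2.63, 2.86 and 3.7 (adjusted p = 0.000125, 0.00035 and 0.000655), while S100a10 fell from 3254 and 3631 to 2247 and 2254 (log2 fold change -0.61, adjusted p = 0.0113). Gjb2, a gap junction gene raised in wounded epidermis, was listed at 0 in both controls and at 143 and 135 in the knock-down, at least 21.8-fold higher (adjusted p = 0.00049). Dropping library 1 or library 2 of the knock-down removed the calls of Ivl, Cst3 and S100a10 (adjusted p from 0.0802 to 0.19). Without library 1 of the empty vector, the call of Ivl was lost (adjusted p = 0.062). Centring by chromosome ended the call of S100a10 (adjusted p = 0.0644).

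Cadherin and other cell adhesion genes were called in both directions. Cdh2, which encodes N-cadherin, was at 43 and 98 with the empty vector and at 811 and 709 with Ntn1 knocked down (log2 fold change 3.44 ± 0.37 SE, adjusted p = 0.000864). Cdh10 was at 4 and 9 against 254 and 223 (log2 fold change 4.44, adjusted p = 0.00035), and Cdh5, the cadherin of endothelial cells, was listed at 0 in the controls and at 86 and 113 in the knock-down, at least 15.6-fold higher (adjusted p = 0.000725). Of the 9 endothelial markers 3 were tested, and Cdh5 was the 1 called. Below the filter, Kdr and Vwf were at 0 to 2 in all 6 libraries, while Tie1 was at 0 and 0 with the empty vector, 12 and 15 with Ntn1 knocked down and 0 and 14 with Unc5b knocked down. The part of endothelial cells in the value of Cdh5 was not tested. Cdh6, another cadherin gene below the filter, was at 0 to 4. Cdh1, the gene of E-cadherin, was at 7460 and 8419 against 9380 and 8767 and did not pass (log2 fold change 0.19, adjusted p = 0.299), nor did the vimentin gene Vim, added to the named genes with its values in view, at 582 and 1102 against 1101 and 1009 (log2 fold change 0.39, adjusted p = 0.442). Cdh1 lies on chromosome 8, where the median gene was 0.33 lower, and after centring by chromosome it was called higher (adjusted p = 0.0242). Nectin3, an adhesion molecule of adherens junctions, rose from 8 and 5 to 250 and 205 (log2 fold change 4.34, adjusted p = 0.000247). Cdh13, a cadherin held by a lipid anchor, fell from 1983 and 2229 to 483 and 508 (log2 fold change -2.07, adjusted p = 0.000303). Of 26 adherens junction and cadherin genes, 7 rose and 4 fell.

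Desmosomal cadherins made up the called genes of the desmosome. Dsg2 was at 165 and 98 with the empty vector and at 1153 and 1223 with Ntn1 knocked down (log2 fold change 3.17 ± 0.27 SE, adjusted p = 0.000358), Dsg3, of basal epidermis, at 16 and 9 against 143 and 165 (log2 fold change 3.21, adjusted p = 0.00135) and Dsc2 at 49 and 48 against 152 and 159 (log2 fold change 1.58, adjusted p = 0.00615). Dsc3, of the same family, was at 0 to 2 in all 6 libraries. Of 12 desmosome genes 3 rose and 0 fell, and the 3 that rose are all on chromosome 18, where the median gene was 0.29 higher. Cdh2 is on the same chromosome. All 4 kept their calls after centring by chromosome, although the call of Dsc2 needed both libraries of the knock-down (adjusted p = 0.0669 with the first dropped and 0.0711). In tight junctions the barrier claudin Cldn1 rose from 96 and 169 to 635 and 758 (log2 fold change 2.4, adjusted p = 0.00109). The claudins of simple epithelia Cldn6 (3011 and 3137 against 1605 and 1477) and Cldn4 (7837 and 8145 against 5176 and 4850) fell (log2 fold changes of -0.99 and -0.67, adjusted p = 0.00104 and 0.00392). The count was 2 higher and 5 lower of 26, shares of 7.69% and 19.2% against 8.04% and 7.06% of all genes. The call of Cldn4 needed both libraries too (adjusted p = 0.0555 with the first dropped and 0.077).

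Transcription factors of the mesenchymal programme were called in both directions. Prrx1, a homeobox factor of mesenchyme, was at 2728 and 3165 with the empty vector and at 6147 and 6088 with Ntn1 knocked down (log2 fold change 1.06 ± 0.11 SE, adjusted p = 0.000879), whereas the related Prrx2 was at 466 and 512 against 162 and 177 (log2 fold change -1.5, adjusted p = 0.00155). Zeb2, a repressor of epithelial genes, rose from 299 and 320 to 635 and 755 (log2 fold change 1.15, adjusted p = 0.00501), while its relative Zeb1 was low in all libraries, at 26 and 39 against 19 and 55 (log2 fold change 0.04, adjusted p = 0.967). Foxc1 fell from 2388 and 3309 to 901 and 994 (log2 fold change -1.57, adjusted p = 0.00167) and Twist2 from 1211 and 1347 to 238 and 443 (log2 fold change -1.96, adjusted p = 0.00754). Snai1 and Twist1, at 336 and 350 against 262 and 248 and 175 and 281 against 114 and 131, did not pass (log2 fold change -0.42, adjusted p = 0.178 and log2 fold change -0.83, adjusted p = 0.134). Of 24 factors 5 rose and 6 fell. Among epithelial factors, the ETS gene Ehf rose from 16 and 43 to 549 and 630 (log2 fold change 4.22, adjusted p = 0.00183), and Trp63, the gene of the p63 protein of basal epidermis, fell from 94 and 96 to 33 and 31 (log2 fold change -1.43, adjusted p = 0.0178). Of 32 epithelial transcription and splicing factors 2 rose and 4 fell, shares of 6.25% and 12.5% against 8.04% and 7.06% of all genes. Of 22 surface markers that sort tumour cells by state 8 rose and 2 fell, with Cd44 at 14071 and 14156 against 22294 and 23934 (log2 fold change 0.71, adjusted p = 0.00538) and Prom1, the gene of CD133, at 2 and 0 against 69 and 70 (log2 fold change 3.65, adjusted p = 0.00294). For Trp63 and Cd44 the calls did not hold without library 1 or library 2 of the knock-down (adjusted p from 0.0614 to 0.12). Dropping library 1 of the knock-down removed the call of Twist2 (adjusted p = 0.0802). Without library 2 of the knock-down, the call of Zeb2 was lost (adjusted p = 0.0781).

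Some genes of neurons were among the largest rises. Stmn2, a regulator of microtubules in growing axons, was at 31 and 57 with the empty vector and at 1184 and 1186 with Ntn1 knocked down (log2 fold change 4.65 ± 0.47 SE, adjusted p = 0.000676). Nefm and Nefl, neighbouring genes of neurofilament chains, were both listed at 0 in both controls, and were at 181 and 122 for Nefm, at least 23.8-fold higher (adjusted p = 0.000419), and 133 and 86 for Nefl, at least 17.2-fold higher (adjusted p = 0.000676), in the knock-down. Cyfip2, of the WAVE complex that drives actin branching, was at 0 and 2 against 283 and 382 (log2 fold change 5.82, adjusted p = 0.000203), and Auts2, a neuronal developmental gene, at 0 and 2 against 316 and 306 (log2 fold change 5.74, adjusted p = 9.7e-05). Map1b, which encodes a microtubule-associated protein of axons, was already high in the controls and rose from 3437 and 2737 to 11078 and 10647 (log2 fold change 1.82, adjusted p = 0.000203). The doublecortin-like kinase gene Dclk1 fell, from 2319 and 1973 to 870 and 917 (log2 fold change -1.26, adjusted p = 0.0027). Of 22 genes of this list, 8 rose and 1 fell. Members below the filter went both ways, with Syt1 at 22 and 18 against 2 and 0 and Tubb3 at 12 and 7 against 29 and 15. Nefh and Snap25 were at 0 to 5 in all 6 libraries. Like all the lists used here, this list was drawn up with earlier results of these libraries known and is no independent evidence. The 10 melanocyte and nerve markers summed to 2947 and 2409 with the empty vector and to 1126 and 1155 with Ntn1 knocked down, and of the 4 tested 0 rose and 2 fell. Of these markers Sox10 was at 0 to 4 in all 6 libraries. The call of Dclk1 was lost without library 1 of the knock-down (adjusted p = 0.0514).

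Other families of guidance cues changed as well. Sema6a, a membrane-bound semaphorin, was at 90 and 43 with the empty vector and at 1439 and 1287 with Ntn1 knocked down (log2 fold change 4.34 ± 0.37 SE, adjusted p = 0.00035), and the secreted Sema3a at 22 and 64 against 416 and 367 (log2 fold change 3.2, adjusted p = 0.00183). Nrp1, a co-receptor of SEMA3A, was at 1439 and 4898 against 233 and 266, and fell (log2 fold change -3.39, adjusted p = 0.00818), although the controls were far apart. Plxnd1, another semaphorin receptor, rose from 37 and 71 to 212 and 205 (log2 fold change 1.92, adjusted p = 0.00482). Of 23 semaphorins, plexins and neuropilins, 6 rose and 2 fell. Efnb1, an ephrin ligand, rose from 193 and 167 to 761 and 550 (log2 fold change 1.82, adjusted p = 0.000979), Slit2 rose from 165 and 183 to 473 and 523 (log2 fold change 1.49, adjusted p = 0.00636), and Ephb6, a receptor without kinase activity, fell from 61 and 149 to 7 and 0 (log2 fold change -3.7, adjusted p = 0.00477). Leaving out library 1 or library 2 of the knock-down ended the calls of Nrp1, Plxnd1 and Slit2 (adjusted p from 0.0576 to 0.0875).

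Proteases of the matrix were called mostly higher, and matrix proteins in both directions. Mmp3 and Mmp13, neighbouring genes on chromosome 9 that encode stromelysin 1 and collagenase 3, were at 22 and 27 against 490 and 346 for Mmp3 (log2 fold change 3.83, adjusted p = 0.000203) and 100 and 231 against 2475 and 2428 for Mmp13 (log2 fold change 3.96, adjusted p = 0.000481). The gelatinase gene Mmp9 was at 134 and 43 against 1158 and 1015 (log2 fold change 3.74, adjusted p = 0.000879). Adamts14, which trims procollagen, was at 8 and 48 against 797 and 930 (log2 fold change 5.04, adjusted p = 9e-04). Both knock-down libraries lay above both controls in all 4, which the rule for naming called genes required. Timp3, an inhibitor of these enzymes that binds to matrix, fell from 12061 and 17275 to 3819 and 3495 (log2 fold change -1.98, adjusted p = 0.000395), and Adamts1, which cleaves proteoglycans, from 2840 and 2828 to 640 and 609 (log2 fold change -2.17, adjusted p = 9.71e-05). Of 31 genes of these families 12 rose and 4 fell. The counts were 9 higher and 3 lower without library 1 and 10 and 3 without library 2 of the knock-down. Serpinb2 and Serpine2, inhibitors of plasminogen activators, rose from 159 and 57 to 3367 and 2544 (log2 fold change 4.86, adjusted p = 0.00217) and 1232 and 741 against 2849 and 2856 (log2 fold change 1.57, adjusted p = 0.00223).

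Of 37 matrix glycoproteins and proteoglycans, 6 rose and 13 fell. Fbn1, the gene of the microfibril protein fibrillin-1, was at 3083 and 2899 with the empty vector and at 426 and 401 with Ntn1 knocked down (log2 fold change -2.84 ± 0.18 SE, adjusted p = 0.000126). Cyr61 and Ctgf, matricellular proteins and well-known targets of YAP and TAZ, were at 5882 and 7804 against 2012 and 2104 for Cyr61 (log2 fold change -1.72, adjusted p = 0.00035) and 7985 and 13129 against 4087 and 4342 for Ctgf (log2 fold change -1.28, adjusted p = 0.00597). Thbs1, the gene of thrombospondin 1, fell from 74400 and 92876 to 41076 and 42855 (log2 fold change -0.99, adjusted p = 0.00671). Sparc, a collagen-binding protein, rose from 354 and 640 to 1752 and 1602 (log2 fold change 1.8, adjusted p = 0.00225) and Gpc4, a glypican, from 28 and 87 to 473 and 459 (log2 fold change 3.1, adjusted p = 0.00259). Among collagens, Col12a1 fell from 798 and 1159 to 121 and 159 (log2 fold change -2.75, adjusted p = 0.00109) and Col27a1 from 73 and 103 to 5 and 3 (log2 fold change -3.36, adjusted p = 0.00275), and the collagen cross-linking enzyme gene Loxl4 fell from 2003 and 2588 to 523 and 538 (log2 fold change -2.09, adjusted p = 0.000712). Plod2, which prepares collagen for cross-linking, rose from 411 and 396 to 968 and 930 (log2 fold change 1.22, adjusted p = 0.00147). Of 29 YAP and TAZ target genes 4 rose and 9 fell. Ankrd1, another gene of that list, was at 1425 and 1930 against 1398 and 1400 and did not pass (log2 fold change -0.24, adjusted p = 0.322). For Ctgf and Thbs1 the calls did not hold without library 1 or library 2 of the knock-down (adjusted p from 0.064 to 0.083).

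Promoters of 4 genes that rose by at least 3 on the log2 scale are shown because each holds both an AP-1 motif and a TATA box. They are the 250 bases before the RefSeq start on GRCm38.p6, 5′ to 3′ on the strand of the gene, with matches to TGANTCA (the AP-1 motif, its own reverse complement) and TATAAA (searched on both strands) in capitals. The AP-1 motif and the TATA box share no end letters that would let them overlap. These 4 were picked with their values in view.
Il1a (chr2:129309973-129310222, minus strand): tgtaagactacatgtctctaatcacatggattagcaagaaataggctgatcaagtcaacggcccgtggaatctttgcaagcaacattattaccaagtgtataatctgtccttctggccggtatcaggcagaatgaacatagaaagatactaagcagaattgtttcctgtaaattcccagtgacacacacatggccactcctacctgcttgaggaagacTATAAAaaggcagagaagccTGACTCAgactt
Mmp3 (chr9:7445572-7445821, plus strand): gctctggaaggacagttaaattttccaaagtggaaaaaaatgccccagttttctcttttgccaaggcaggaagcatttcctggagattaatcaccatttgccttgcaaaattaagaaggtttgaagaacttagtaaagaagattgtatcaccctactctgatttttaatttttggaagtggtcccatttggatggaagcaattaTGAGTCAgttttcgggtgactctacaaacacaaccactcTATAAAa
Mmp13 (chr9:7272264-7272513, plus strand): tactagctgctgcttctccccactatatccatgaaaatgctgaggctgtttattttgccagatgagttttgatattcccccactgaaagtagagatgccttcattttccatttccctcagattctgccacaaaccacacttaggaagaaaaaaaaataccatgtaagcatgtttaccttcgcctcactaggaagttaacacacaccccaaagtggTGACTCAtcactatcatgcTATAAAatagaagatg
Serpinb2 (chr1:107511173-107511422, plus strand): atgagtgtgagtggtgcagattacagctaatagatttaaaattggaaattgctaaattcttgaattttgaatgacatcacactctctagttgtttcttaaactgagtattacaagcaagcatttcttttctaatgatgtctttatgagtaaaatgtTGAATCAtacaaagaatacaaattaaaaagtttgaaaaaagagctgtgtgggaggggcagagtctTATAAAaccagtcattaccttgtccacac

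Of the 9687 tested genes with a RefSeq promoter of this length, 5.75% held TGANTCA and 7.71% held TATAAA. Among those called higher the shares were 8.95% and 12.2% (75 and 102 of 838), and among those called lower 5.8% and 7.77% (44 and 59 of 759). Among genes that rose by at least 3 on the log2 scale they were 16.9% and 15.6% (13 and 12 of 77). Among those that fell by as much they were 5.26% and 5.26% (1 and 1 of 19). At 2-fold or more they were 11.8% and 14.9% among 424 genes that rose, and 7.61% and 8.7% among 276 that fell. CCAAT, also searched on both strands, was in 40.5% of all, 39.7% of the higher and 39.1% of the lower promoters. These are counts of letters, with no test, and say nothing of binding. The genes of the AP-1 factors themselves went both ways. Jun rose from 1401 and 1221 to 3384 and 2987 (log2 fold change 1.28, adjusted p = 0.000856). Fos fell from 2482 and 3578 to 1222 and 1086 (log2 fold change -1.37, adjusted p = 0.00182). Fosl2 fell from 4235 and 4612 to 2214 and 2223 (log2 fold change -0.99, adjusted p = 0.00109).

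Genes of inflammatory signals were called mostly higher in the interleukin-1 and cytokine lists, and in both directions among chemokine ligands. Il1a, the gene of the alarmin interleukin-1 alpha, was at 1246 and 903 with the empty vector and at 10538 and 10494 with Ntn1 knocked down (log2 fold change 3.3 ± 0.15 SE, adjusted p = 6.35e-05). The genes of its antagonist Il1rn (26 and 34 against 185 and 205, log2 fold change 2.52, adjusted p = 0.000795) and of the interleukin-33 receptor Il1rl1 (24 and 9 against 152 and 162, log2 fold change 3.01, adjusted p = 0.0022) rose with it. Of 17 interleukin-1 family, receptor and inflammasome genes 7 rose and 0 fell. Without library 1 or library 2 of the Ntn1 knock-down, 4 rose. Tnf was at 10 and 7 against 136 and 107 (log2 fold change 3.23, adjusted p = 0.000712), the TNF family receptor Tnfrsf26 at 35 and 48 against 749 and 786 (log2 fold change 4.07, adjusted p = 9.7e-05) and the leptin receptor Lepr at 6 and 0 against 102 and 95 (log2 fold change 3.8, adjusted p = 0.000771). Of 13 chemokine ligand genes 4 rose and 3 fell. The neutrophil chemokine gene Cxcl5 rose from 947 and 828 to 3086 and 3293 (log2 fold change 1.84, adjusted p = 0.000203). The 3 that fell were Cxcl3, from 1016 and 556 to 328 and 294 (log2 fold change -1.26, adjusted p = 0.0135), Cxcl12, from 126 and 777 to 36 and 21 with controls far apart (log2 fold change -3.29, adjusted p = 0.0215), and Cx3cl1, from 1108 and 1498 to 635 and 743 (log2 fold change -0.9, adjusted p = 0.0308). Tnfaip3, the A20 feedback inhibitor of NF-kB, rose from 3634 and 3066 to 8158 and 8644 (log2 fold change 1.33, adjusted p = 0.000431). Of 50 cytokines, colony-stimulating factors and receptors 16 rose and 5 fell. The falls included Csf1r, the receptor of macrophage colony-stimulating factor, from 1213 and 1511 to 347 and 443 (log2 fold change -1.77, adjusted p = 0.00193), and its ligand gene Csf1, from 3815 and 4415 to 2199 and 2290 (log2 fold change -0.87, adjusted p = 0.00358). Dropping library 1 or library 2 of the knock-down removed the calls of Cxcl3, Cxcl12, Cx3cl1 and Csf1 (adjusted p from 0.0524 to 0.222). Without library 2 of the empty vector, the calls of Cxcl12 and Cx3cl1 were lost (adjusted p from 0.0532 to 0.0996). Centring by chromosome ended the call of Cx3cl1 (adjusted p = 0.13).

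Enzymes that use arginine and make prostaglandins changed in opposite directions within each pathway. Nos2, the inducible nitric oxide synthase, was at 39 and 69 with the empty vector and at 1519 and 1939 with Ntn1 knocked down (log2 fold change 4.91 ± 0.35 SE, adjusted p = 0.000203), and Ass1, which regenerates its substrate arginine, rose from 67 and 73 to 292 and 309 (log2 fold change 2.03, adjusted p = 0.000655). Arg1, the arginase that competes for arginine, fell from 165 and 220 to 14 and 43 (log2 fold change -2.7, adjusted p = 0.00836). Ptges, the last enzyme of prostaglandin E2 synthesis, rose from 409 and 542 to 1198 and 1211 (log2 fold change 1.35, adjusted p = 0.00134), and Ptgs1, the constitutive cyclooxygenase upstream of it, fell from 9343 and 14261 to 4691 and 5134 (log2 fold change -1.23, adjusted p = 0.00808). Of 23 genes in this list, 6 rose and 3 fell. The call of Ptgs1 was lost without library 1 or library 2 of the knock-down (adjusted p from 0.0729 to 0.0953). Leaving out library 1 of the knock-down ended the call of Arg1 (adjusted p = 0.0715).

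In developmental signalling the members of a pathway list often differed in direction. For Notch, the ligand genes Jag1 (1712 and 1509 against 5369 and 5134, log2 fold change 1.7, adjusted p = 0.000879) and Dll4 (4 and 0 against 90 and 107, log2 fold change 3.94, adjusted p = 0.000879) rose, and Rbpj, the DNA-binding partner of activated Notch, fell from 17308 and 16968 to 9708 and 9816 (log2 fold change -0.81, adjusted p = 0.0028). For Hedgehog, Ptch1, the receptor and a target of the pathway, fell from 1366 and 1427 to 602 and 557 (log2 fold change -1.26, adjusted p = 0.000727), and so did Hhip, an inhibitor and another target, from 352 and 556 to 67 and 64 (log2 fold change -2.67, adjusted p = 0.000879). Disp2, of a family that releases the ligand, rose from 4 and 2 to 228 and 260 (log2 fold change 4.97, adjusted p = 0.000203). For Wnt, the secreted antagonist Sfrp1 fell from 853 and 1038 to 119 and 131 (log2 fold change -2.86, adjusted p = 0.000203) and the agonist Rspo3 from 193 and 327 to 29 and 34 (log2 fold change -2.82, adjusted p = 0.00243), while Nkd2, an intracellular antagonist, rose from 79 and 48 to 264 and 330 (log2 fold change 2.17, adjusted p = 0.00161). Axin2, of the same list, fell from 79 and 345 to 10 and 28 with controls far apart (log2 fold change -2.95, adjusted p = 0.0288). Its call was lost without library 1 or library 2 of the knock-down or library 2 of the empty vector. In the BMP branch, the ligand Bmp4 was at 96 and 265 against 5 and 9 (log2 fold change -3.8, adjusted p = 0.00289). The target genes Id1 (1325 and 2044 against 504 and 477, log2 fold change -1.74, adjusted p = 0.00126) and Id2 (3087 and 4072 against 554 and 639, log2 fold change -2.56, adjusted p = 0.000535) also fell. Bmp7 went the other way, from 332 and 761 to 1541 and 1388 (log2 fold change 1.53, adjusted p = 0.0144), a call lost without library 1 or library 2 of the knock-down. Grem1, of the same list but below the filter, was at 0 and 0 against 50 and 49. Inhba, the gene of an activin subunit, rose from 220 and 277 to 701 and 667 (log2 fold change 1.45, adjusted p = 0.00161). The counts were 3 higher and 4 lower of 19 Notch genes (15.8% and 21.1%) and 2 and 2 of 12 Hedgehog genes (16.7% and 16.7%). They were 6 and 9 of 40 Wnt genes (15% and 22.5%) and 13 and 6 of 42 TGF-beta, activin and BMP genes (31% and 14.3%). Over all genes the shares were 8.04% and 7.06%. For Rbpj the call did not hold without library 1 or library 2 of the knock-down (adjusted p from 0.0502 to 0.0554).

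Transport and detoxification genes went both ways. The water channel gene Aqp5 was at 1362 and 1610 with the empty vector and at 107 and 156 with Ntn1 knocked down (log2 fold change -3.47 ± 0.32 SE, adjusted p = 0.00043), and Scnn1a, of the epithelial sodium channel, at 407 and 1475 against 57 and 70 (log2 fold change -3.52, adjusted p = 0.00683), with controls far apart. The chloride transport genes Slc12a2 (2187 and 1742 against 5761 and 5391, log2 fold change 1.51, adjusted p = 0.000385) and Cftr (0 and 11 against 100 and 67, log2 fold change 3.28, adjusted p = 0.00839) rose. Gstm1 and Gstt1, glutathione transferases, were at 1281 and 2106 against 197 and 242 for Gstm1 (log2 fold change -2.88, adjusted p = 0.00045) and 69 and 123 against 5 and 6 for Gstt1 (log2 fold change -3.21, adjusted p = 0.00332). Aldh3a1, an aldehyde dehydrogenase, fell from 5882 and 6018 to 706 and 917 (log2 fold change -2.88, adjusted p = 0.00221). The cystine transporter Slc7a11, which supplies glutathione synthesis, rose from 1881 and 1683 to 3976 and 4223 (log2 fold change 1.2, adjusted p = 0.000502). Of 54 antioxidant genes 6 rose and 9 fell. Small heat shock genes parted: Hspb1 rose from 210 and 302 to 1845 and 1945 (log2 fold change 2.89, adjusted p = 0.000125) and Cryab fell from 554 and 631 to 83 and 76 (log2 fold change -2.82, adjusted p = 0.000203). Dropping library 1 or library 2 of the knock-down removed the calls of Scnn1a and Cftr (adjusted p from 0.0638 to 0.0992).

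Genes of growth and respiration differed between lists. Of 76 cell cycle and DNA replication genes 2 rose and 3 fell, a share of 6.58% against 15.1% of all genes, and the cyclin gene Ccnd2 had the largest change, from 61 and 190 to 1187 and 1052 (log2 fold change 3.31, adjusted p = 0.00171). Of 13 mitochondrially encoded protein genes 0 passed. Changes of cytoplasmic ribosomal protein genes were small and in 1 direction: of 81 tested, 0 rose and 24 fell, a share of 29.6% called lower against 7.06% of all genes, with a median log2 fold change of -0.31. Leaving out library 1 or library 2 of the Ntn1 knock-down left 0 of the 24, with medians of -0.28 and -0.32. After centring by chromosome 9 fell, at a median of -0.3. Of 76 nuclear genes of oxidative phosphorylation 0 rose and 5 fell, with a median of -0.22.

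Of the 44 genes that fell by at least 3 on the log2 scale, 11 were gene models with sequence in common. In the transcripts of GENCODE M21, 13 gene models of the table share at least 30% of their 20-base words, on either strand, with Gm10718. Of these 10 lie within chromosome 9 from 3000282 to 3038316, 2 on chromosome 2 from 98662237 to 98667301 and 1, Gm21738, on chromosome 14 from 19415857 to 19418930. They resemble the major satellite, the tandem repeat around mouse centromeres. Stretches of 3 of the models are shown, with a run of 30 bases that all 11 tested models contain in capitals.
Gm10718: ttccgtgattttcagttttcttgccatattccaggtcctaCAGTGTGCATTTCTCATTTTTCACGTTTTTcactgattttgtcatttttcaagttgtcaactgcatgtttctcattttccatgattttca
Gm21738: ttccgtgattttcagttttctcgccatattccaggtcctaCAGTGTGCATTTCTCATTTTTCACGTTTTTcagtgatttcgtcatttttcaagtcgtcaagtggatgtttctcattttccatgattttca
Gm10800: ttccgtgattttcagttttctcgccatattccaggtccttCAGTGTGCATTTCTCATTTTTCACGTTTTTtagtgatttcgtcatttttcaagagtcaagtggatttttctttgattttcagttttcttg

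Gm21738 was at 2058 and 4116 with the empty vector and at 26 and 28 with Ntn1 knocked down (log2 fold change -6.51 ± 0.3 SE, adjusted p = 6.35e-05), and at 130 and 118 with Unc5b knocked down. Gm10718 was at 230 and 519 against 2 and 0 and Gm10800 at 1712 and 3363 against 90 and 162. Of the 13 models, 11 reached the filter and all 11 fell. The values of the 13 summed to 5718 and 11409 in the empty vector libraries and to 165 and 220 in the Ntn1 knock-down, 44.5-fold lower on average. They summed to 760 and 1076 in the Unc5b knock-down, which lies between. The sum is 0.0286% and 0.057% of the control libraries. The models were noticed among the largest falls and then gathered by sequence, so their common direction is a description. Reads from sequence that the models share can be split between them in counting, so the value of a single model is uncertain. The source of the difference was not tested.

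**Figure D4:**
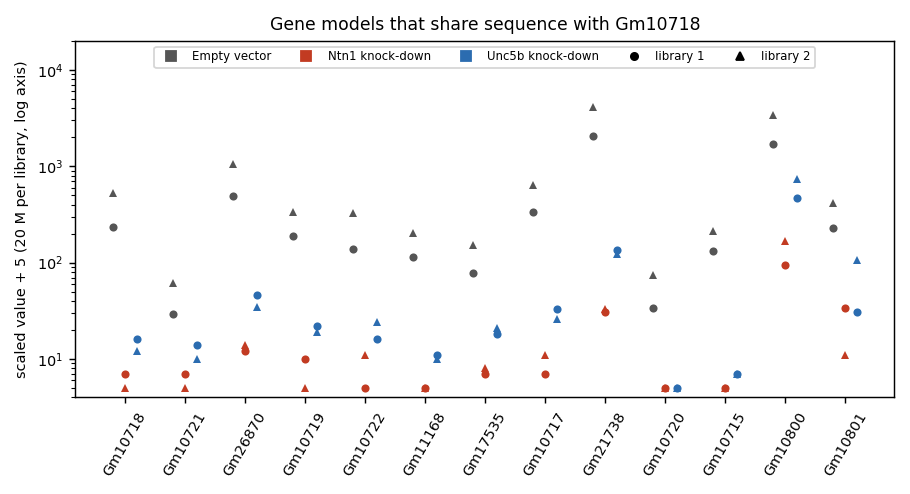
Scaled value + 5 on a log axis of the 13 gene models that share sequence with Gm10718, in each of the 6 libraries (circles library 1, triangles library 2). The empty vector libraries (grey) lie above both knock-downs for all 13, and empty vector library 2 lies above library 1.

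Changes were also uneven along the genome. Over genes with a mean of at least 200, the median log2 fold change was -0.33 on chromosome 8, where 84.2% of genes were lower, -0.24 on chromosome 17, -0.23 on chromosome 2 and -0.21 on chromosome 3. It was 0.29 on chromosome 18, where 16.3% were lower, 0.18 on chromosome 10 and 0.17 on chromosome 5. The 2 knock-down libraries gave nearly the same median on each chromosome, -0.33 and -0.32 on chromosome 8 and 0.33 and 0.28 on chromosome 18. On the other chromosomes the median lay between -0.11 and 0.1. Calls were uneven in the same way: 23 genes rose and 146 fell on chromosome 8, 16 rose and 83 fell on chromosome 17, and 78 rose and 15 fell on chromosome 18. Some windows of 20 Mb stood further out, with 0.45 at 0 to 20 Mb of chromosome 5 and 0.39 at 100 to 120 Mb of chromosome 12.

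The Unc5b knock-down had medians of -0.25 and -0.27 on chromosome 8, -0.22 and -0.22 on chromosome 17 and 0.35 and 0.32 on chromosome 5, but 0.04 and 0.07 on chromosome 3. Both knock-downs are set against the same control libraries, so these values are not independent. When the median of each chromosome was taken from every library first, an alternative chosen after seeing the data, 1926 genes passed, 1139 higher and 787 lower, and chromosome 8 had 53 higher and 41 lower. Of the 2314 calls 1707 were kept and 0 changed sign. The source of these differences between chromosomes was not tested.

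**Figure D5:**
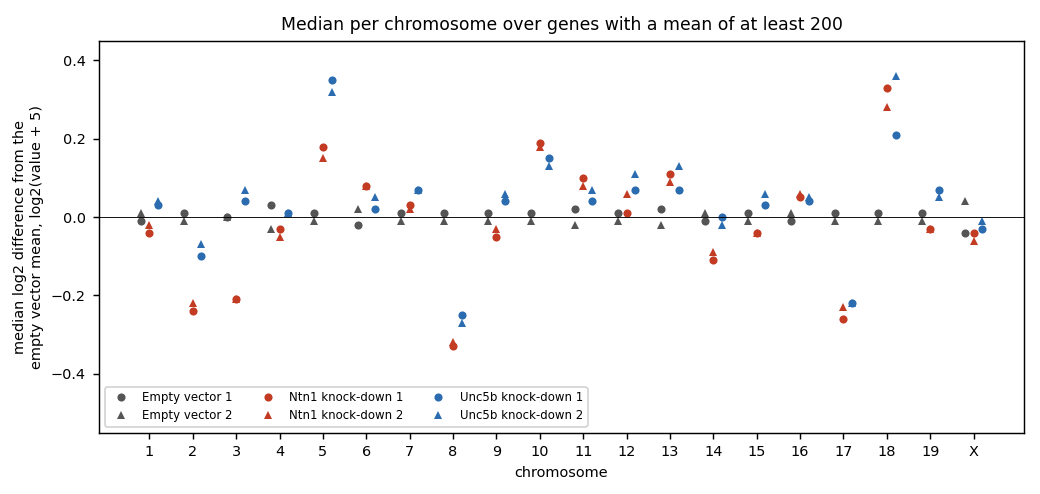
Median log2 difference from the mean of the empty vector libraries for each chromosome and library, over genes with a mean of at least 200. The empty vector points mirror each other around 0 by construction, and the Ntn1 knock-down libraries (red) lie near -0.33 on chromosome 8 and near 0.3 on chromosome 18.

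Set directly against the Unc5b knock-down, 1088 of 15330 genes passed (7.1%), 636 higher (4.15%) and 452 lower (2.95%) in the Ntn1 knock-down. Several genes described above were low in the Unc5b knock-down. Stmn2 was at 2 and 14 there (log2 difference 6.69 ± 0.47 SE, adjusted p = 0.000858), Cdh2 at 9 and 7 (log2 difference 5.88 ± 0.37 SE, adjusted p = 0.000774), Cyfip2 at 2 and 0 (log2 difference 5.82 ± 0.42 SE, adjusted p = 0.000858) and Nefm at 2 and 0 (log2 difference 4.7 ± 0.44 SE, adjusted p = 0.00142). Flrt2 was at 32 and 16 (log2 difference 3.43 ± 0.4 SE, adjusted p = 0.00292) and Dsg3 at 13 and 7 (log2 difference 3.43 ± 0.38 SE, adjusted p = 0.00256). For these 6 genes the Ntn1 knock-down libraries were above all other libraries. The calls of Flrt2 and Dsg3 were lost without either Ntn1 library (adjusted p from 0.0611 to 0.0736), and that of Nefm without library 1 (adjusted p = 0.0577). Vim was at 85 and 137 with Unc5b knocked down, below all 4 other libraries (log2 difference 3.23 ± 0.31 SE, adjusted p = 0.00151, and 0.0563 without library 1 of the Ntn1 knock-down).

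For other genes a difference between the knock-downs was not called, which does not show that they were alike. Il1a was at 12275 and 11227 with Unc5b knocked down (log2 difference -0.16 ± 0.15 SE, adjusted p = 0.593), Mmp13 at 3819 and 2177 (log2 difference -0.23 ± 0.37 SE, adjusted p = 0.763), Gstm1 at 267 and 192 (log2 difference -0.05 ± 0.26 SE, adjusted p = 0.937), Fbn1 at 541 and 380 (log2 difference -0.13 ± 0.18 SE, adjusted p = 0.719) and Hspb1 at 1641 and 1584 (log2 difference 0.23 ± 0.18 SE, adjusted p = 0.484). Intermediate values were seen for Lama3, at 11477 and 13355 (log2 difference 0.72 ± 0.17 SE, adjusted p = 0.0431), Itga2, at 2050 and 2455 (log2 difference 1.64 ± 0.19 SE, adjusted p = 0.003), and Krt17, at 365 and 753 (log2 difference 1.51 ± 0.32 SE, adjusted p = 0.0279). Without Ntn1 knock-down library 1 or 2 the adjusted p was 0.314 and 0.211 for Lama3, 0.0771 and 0.0611 for Itga2 and 0.226 and 0.216 for Krt17. Calls against the Unc5b knock-down were sensitive to the libraries: 34 and 52 genes passed without Ntn1 knock-down library 1 and 2, and 318 and 330 without Unc5b knock-down library 1 and 2. Without empty vector library 1 or 2, 1815 or 1842 passed.

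Markers of the sorted cell type were present in every library. Epcam, on chromosome 17, was at 8032 and 9336 against 10127 and 9736 (log2 fold change 0.2, adjusted p = 0.27, and 0.0418 after centring by chromosome), and the 8 epithelial markers were tested, of which 3 rose and 0 fell. Their values summed to 59829 and 56903 in the controls and 78896 and 74650 in the knock-down. Most defining markers of other cell types were near 0: 3 of 10 fibroblast, 3 of 16 immune, 3 of 9 endothelial and 4 of 10 melanocyte and nerve markers reached the filter. Lum was at 0 to 2 and Ptprc at 0 to 5 in all 6 libraries. Some others below the filter were higher in both Ntn1 knock-down libraries than in the controls: Pdgfrb was at 8 and 7 against 36 and 31, Col3a1 at 8 and 9 against 21 and 28 and Cd74 at 6 and 2 against 14 and 18. Col1a2, at 10 and 25 against 19 and 9, overlapped between the groups. The summed fibroblast markers were 1347 and 1489 in the controls and 551 and 660 in the knock-down, and most of that sum in the controls was Twist2, the 1 member called, at 1211 and 1347 against 238 and 443 (log2 fold change -1.96, adjusted p = 0.00754, and 0.0802 without library 1 of the knock-down). The summed immune markers, 1438 and 1679 in the controls and 660 and 809 in the knock-down, had Csf1r as the largest member tested, and the summed endothelial markers were 271 and 337 against 394 and 440. Exons of Krt6a, Twist2, Nefl, Timp3, Fbn1, Ctgf and Gm10718 share over 20% of their length with another annotated gene on either strand, so their values are uncertain, since the strand setting of the counting is not given in the sources used here.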

How the data were processed

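RNA from 6 samples was sequenced at day 6, with 2 libraries in each of 3 groups. STAR, Picard and HTSeq and the build GRCm38 or mm10 are named in the submitters' processing notes, without versions or a strand setting. The deposited values are a score: gene counts that the authors scaled to 20 M per library and rounded to whole numbers, as the values themselves show. In each library 0 of the distinct values lay more than 0.5 from a whole multiple of 1 read (1.965 to 3.058), which gave depths of 6.54 to 10.18 M reads.

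Genes with a mean of at least 20 (15330 of 49671) were fitted on log2(value + 5) using limma 3.58.1 (R 4.3.3) with a variance trend and 3 groups (3 residual and 5.33 prior degrees of freedom). Fold changes on this scale understate those of low genes. Benjamini-Hochberg adjustment ran over all genes tested, and an adjusted p under 0.05 was called. The script was tested on simulated data. Named genes were Ntn1 and its receptors, the first 3 entries of each of 55 lists, and called genes whose groups did not overlap. Of the latter, up to 15 in each direction with the largest difference and with the largest fold change were taken. Up to 4 such members in each direction of each list were added. This gave 440 genes. Some genes and 1 allele of the genotype that all groups share are not reported here. The members and lists were chosen with earlier results of these data known. Gene positions are from GENCODE M21 (GRCm38), in which 49412 gene IDs were found. Alternatives changed the constant, the filter, the scaling, the variance trend, the samples fitted, the replicate block and each library; a voom fit on recovered reads, crossed numbers and centring by chromosome or 20 Mb window were added after seeing the data.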

Additional observations from a re-analysis of the deposited data

How the results depend on the processing

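The number of genes called between Ntn1 knock-down and empty vector (2314, with 1232 higher and 1082 lower) was 1289 with no filter on low values (753 higher, 536 lower) and 1462 with no variance trend (629 lower). Leaving out 1 library gave 507 to 2769 calls, 307 to 1447 higher, 200 to 1322 lower and 469 to 1333 at least 2-fold, against 1099; the lowest values came without Ntn1 knock-down library 1. Against the Unc5b knock-down (1088) the counts were 302 with no filter, 454 with no variance trend and 34 to 1842 with 1 library left out. Calls among members of the lists (489) were 265 with no filter, 312 with no variance trend and 155 to 591 with 1 library left out. Apart from the block, the other alternatives, including other constants, scalings and the voom fit, stayed within 1.5 times these counts. Of the 2314 calls 400 were kept in all 19 alternatives, and 142 of the 353 called genes named by the rule. No called gene changed sign in any alternative, except 1 with centring by 20 Mb window. Genes near 0 with no call did: Zeb1 was at -0.24 and -0.34 on the log2 scale with centring by chromosome and by window and at -0.62 to 0.7 with 1 library left out, and Trp53 at -0.04 and -0.02 and at -0.14 to 0.24. Vim was at -0.06 to 0.85, lowest without empty vector library 1.

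With the replicate number as a block, 1465 genes passed (817 higher, 648 lower), and 459 against the Unc5b knock-down. The labels do not say whether the numbers pair libraries across groups. Deviations of library 1 from the group means correlated at 0.16 between the empty vector and the Ntn1 knock-down, -0.45 between the empty vector and the Unc5b knock-down and -0.169 between the knock-downs. With the Unc5b numbers crossed in the block, chosen after seeing the data, 4151 genes passed (2065 higher, 2086 lower), 2617 against the Unc5b knock-down and 767 members of lists. The cause of these differences was not tested. Values under 5.9 to 9.17, which is 3 reads, cannot be told from 0 at this depth, and this limit covers counting error only.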

Other observations

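Lipid genes went both ways. Apob, the gene of the lipoprotein scaffold apolipoprotein B, was at 945 and 1303 with the empty vector and at 26 and 24 with Ntn1 knocked down (log2 fold change -5.22 ± 0.33 SE, adjusted p = 0.000126), and Abcg1, which exports cholesterol, at 1407 and 1612 against 300 and 275 (log2 fold change -2.37, adjusted p = 0.000494). The desaturase gene Scd2 fell from 7914 and 10305 to 1935 and 2614 (log2 fold change -2, adjusted p = 0.00765). Of 56 genes of this list 3 rose and 7 fell, shares of 5.36% and 12.5% against 8.04% and 7.06% of all genes. Of 192 solute carriers 23 rose and 14 fell, shares of 12% and 7.29% that lie near the 8.04% and 7.06% of all genes. The proton exchanger Slc9a2 rose from 26 and 66 to 918 and 734 (log2 fold change 4.14, adjusted p = 0.000377), and the mitochondrial ornithine carrier Slc25a15 fell from 595 and 535 to 78 and 95 (log2 fold change -2.64, adjusted p = 0.00022). Without library 1 or library 2 of the knock-down, the call of Scd2 was lost (adjusted p from 0.0538 to 0.0948).

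Growth factor genes with a called rise included Areg, a ligand of the EGF receptor, from 499 and 197 to 1798 and 1605 (log2 fold change 2.42, adjusted p = 0.00599), and Pdgfa, whose exons overlap another gene, from 2189 and 1873 to 5692 and 5422 (log2 fold change 1.45, adjusted p = 0.000358). Of 42 genes of the EGF receptor family, its ligands and ERK feedback 9 rose and 3 fell. Flt4, a receptor of the VEGF family, fell from 1262 and 1392 to 416 and 440 (log2 fold change -1.62, adjusted p = 0.00443). Among 37 contractile and actin-linking genes 13 rose and 3 fell, with the filamin gene Flnc at 267 and 247 against 611 and 648 (log2 fold change 1.28, adjusted p = 0.00234) and the alpha-actinin gene Actn4 at 8221 and 9066 against 5226 and 4813 (log2 fold change -0.78, adjusted p = 0.00245). Of 29 p53 target genes 5 rose and 1 fell; the fall was Fas, a death receptor, from 537 and 940 to 136 and 159 (log2 fold change -2.23, adjusted p = 0.00134), and the largest rise among those named was Cdkn1a, from 200 and 105 to 399 and 364 (log2 fold change 1.36, adjusted p = 0.0146). The genotype has floxed p53, and Trp53 itself was at 311 and 238 against 252 and 315 (log2 fold change 0.05, adjusted p = 0.899). These values are counts over the whole gene and do not show whether p53 was intact in any group. The calls of Areg, Flt4 and Cdkn1a were lost without library 1 or library 2 of the knock-down (adjusted p from 0.0542 to 0.132). Leaving out library 2 of the knock-down ended the call of Actn4 (adjusted p = 0.0564).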
